A study of Homo sapiens with 2 samples.

Results

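The genes described here are CTCF and 9 genes of the cohesin complex and its regulators: SMC1A, SMC3, RAD21, STAG1, STAG2, NIPBL, PDS5A, PDS5B and WAPAL. They were taken by name from the guide count table of a genome-wide CRISPR knockout screen. All 10 were found there, among 19051 protein-coding targets, with 6 guides each and 60 guides in all. The host cells were SK-OV-3, a long-established line from a human ovarian carcinoma, with a stably integrated dual-fluorescence reporter of transcriptional readthrough (TRT). In this reporter mCherry stands before and EGFP behind the junction of COMMD3 and BMI1, a pair of neighbouring genes, so that cells lacking readthrough show mCherry alone. Both groups received the GeCKO v2.0 guide pool by lentivirus (multiplicity of infection around 0.3) and were selected with puromycin at 2 µg/mL. One group was the unsorted cells and the other was the mCherry-positive, EGFP-negative cells, called TRT-negative below. The control library's title names both fluorescent proteins without mentioning a sort. It was read as the unsorted population of the design text, and what every ratio compares the TRT-negative cells with depends on that reading.

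Cohesin is a ring of SMC1A, SMC3 and the kleisin RAD21, to which either STAG1 or STAG2 binds. NIPBL loads it onto chromatin and drives loop extrusion, WAPAL (now WAPL) releases it, and PDS5A and PDS5B take part in both keeping and releasing it. The ring holds sister chromatids together until division, and it folds interphase chromosomes into loops that stop at sites bound by the zinc finger protein CTCF. The ring subunits and CTCF are broadly known as genes that dividing human cells need. STAG1 and STAG2 can largely stand in for each other, and STAG2 is often mutated in cancers. The comparison asked whether guides against these chromosome-folding genes became more or less frequent among cells whose reporter ended its transcript at the first gene.

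Each group was 1 library over 123411 guide rows, with a total of 12882989 reads for the unsorted and 12444427 for the TRT-negative cells. No difference between the groups could therefore be tested. Intervals below are exact 95% intervals for counting error, which leave out the spread between cultures and sorts and count PCR copies of a molecule as separate reads. A count of 0 allows up to 3 reads by counting error, while the median protein-coding guide that was seen had 770.0 reads before and 66.0 after the sort. Only a minority of the pool was seen at all: 10.5% of 114123 protein-coding guides had a read in the unsorted library and 22.6% in the TRT-negative library. None of the guides with reads against the 10 genes lay beside a row with the same counts, the mark used for guides that near-identical genes may share.

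Most guides against cohesin and CTCF were not seen. Of the 60 guides, 5 were read in the unsorted library (8.33%, interval 2.76% to 18.4%) and 9 in the TRT-negative library (15.0%, interval 7.10% to 26.6%). The unsorted share lay near the 10.5% of all protein-coding guides and its interval spans that value. The TRT-negative share was below the pool's 22.6%, also inside the interval. In either library 9 guides were read (15.0%, interval 7.10% to 26.6%), against 23.1% of all protein-coding guides. Only in the TRT-negative library were 4 guides read (6.67%, interval 1.85% to 16.2%), against 12.6%. The 10 genes thus took 8838 unsorted reads and 6887 TRT-negative reads, which was 0.0742% and 0.0596% of all protein-coding reads for 0.0526% of the guides. A single STAG1 guide held 4267 of these unsorted and 2792 of these TRT-negative reads.

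**Figure D1:**
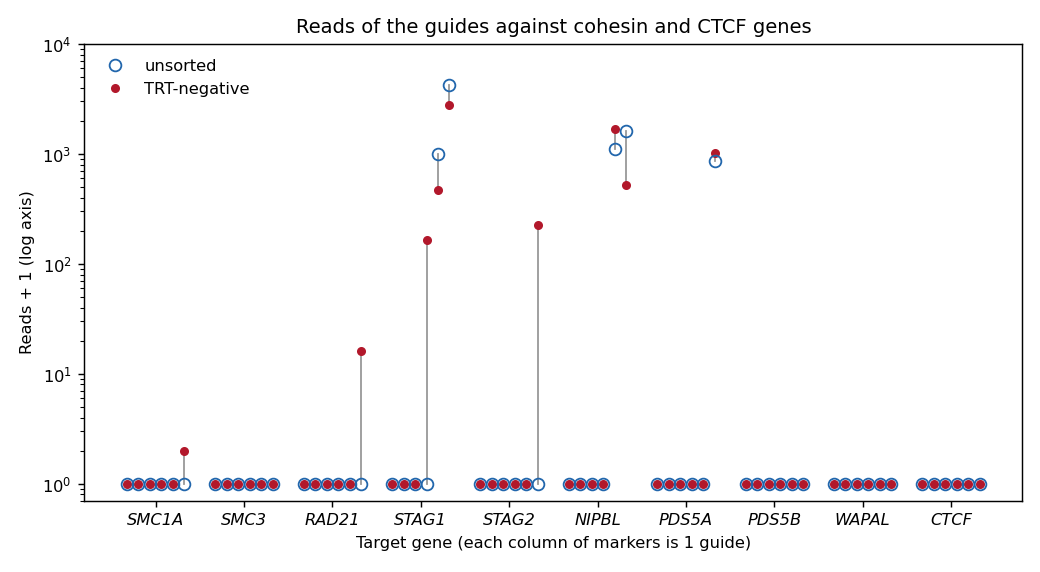
Every guide is drawn as a vertical pair of markers, its reads plus 1 shown on a log axis, with open blue circles for the unsorted and filled red circles for the TRT-negative library, and a grey line joining both values. STAG1, NIPBL and PDS5A hold the 5 guides with reads in both libraries, while all guides of CTCF, SMC3, PDS5B and WAPAL lie at 0 reads.

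Whole genes went unread. In 4 of the 10 genes (CTCF, SMC3, PDS5B and WAPAL) none of the 6 guides had a read in either library, which was the case for 22.1% of protein-coding genes. In 7 of the 10 genes no guide was read in the unsorted library, against 53.1% of protein-coding genes. Only STAG1, NIPBL and PDS5A had a guide with 30 or more unsorted reads, called well read here, against 43.1% of protein-coding genes with 1 or more. STAG1 was also the only member with 3 or more guides read in either library, which 14.8% of protein-coding genes had.

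The ring was sparsely represented. SMC1A (chromosome X, 53374149 to 53422728 on hg38), an ATPase of the ring, had 1 guide with 0 unsorted and 1 TRT-negative read (interval 0.0253 to 5.57 reads) and 5 guides without a read. SMC3 (chromosome 10, 110567684 to 110606048), its partner ATPase, had 0 reads on all 6 guides in both libraries. RAD21 (chromosome 8, 116845934 to 116874776), the kleisin that closes the ring, had 1 guide with 0 unsorted and 15 TRT-negative reads (interval 8.40 to 25). None of the 18 guides against the ring was read in the unsorted library, which allows a share of up to 16.7% at 3 guides of 18 (exact upper limit 18.5%). Either limit is above the share of the whole pool, so a depletion of these guides was not detectable with 18 guides.

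The RAD21 and SMC1A guides were among the faint ones. Against a floor of 3 unsorted reads the RAD21 guide was at least 5.19-fold higher in the TRT-negative library. This bound, like those of the STAG guides below, covers the counting error of the unsorted count alone and takes the TRT-negative count as measured. Its 15 reads were more than those of 15.8% of the 14434 protein-coding guides read only after sorting, whose median was 35.0 reads. The single SMC1A read lies under the floor and gives no ratio.

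CTCF (chromosome 16, 67562467 to 67639177), the DNA-binding protein at which cohesin loops stop, had 6 guides with 0 unsorted and 0 TRT-negative reads. These data therefore hold no measurement of a CTCF knockout in either direction. Counting CTCF with the ring, 0 of 24 guides were read in the unsorted library, which allows up to 12.5% at 3 guides of 24 (exact upper limit 14.2%), and 2 of 24 in the TRT-negative library (8.33%, interval 1.03% to 27.0%). The other 6 genes, STAG1, STAG2, NIPBL, PDS5A, PDS5B and WAPAL, had 5 of 36 guides read in the unsorted library (13.9%, interval 4.67% to 29.5%) and 7 of 36 in the TRT-negative library (19.4%, interval 8.19% to 36.0%). The intervals of both sets overlap and both contain the share of the whole pool.

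**Figure D2:**
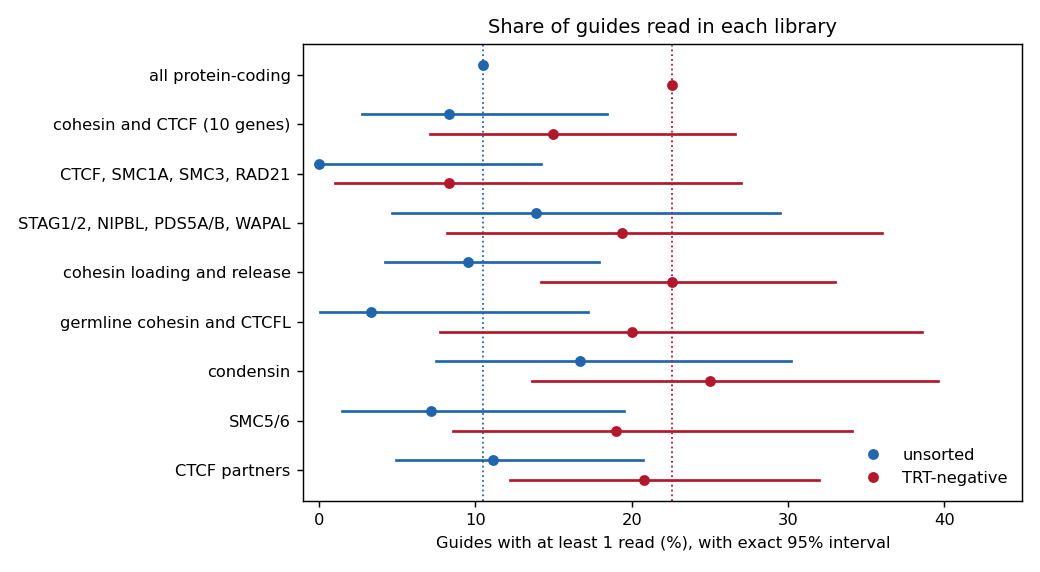
Points give, for each gene set, the share of guides seen with 1 read or more, blue for the unsorted and red for the TRT-negative library (x axis, percent), with exact 95% intervals for counting error, and dotted lines mark all protein-coding guides. The 24 guides against CTCF, SMC1A, SMC3 and RAD21 stand at 0% and 8.33%, and every interval shown spans the dotted line of its library.

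The highest ratios belonged to the STAG pair. A guide was called enriched when log2((TRT-negative + 1)/(unsorted + 1)) of its normalized reads exceeded 5.93, the 95th percentile of non-targeting guides, which a guide without unsorted reads reached with 60 TRT-negative reads. This held for 2 of the 60 guides (3.33%, interval 0.406% to 11.5%), 1 against STAG1 and 1 against STAG2, beside 2.87% of all protein-coding guides. At least 1 enriched guide was thus found in 2 of 10 genes, against 16.0% of protein-coding genes. Both counts lie near those of the pool.

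STAG2 (chromosome X, 123960212 to 124422664) had 1 guide with 0 unsorted and 227 TRT-negative reads (interval 198 to 259), and 5 guides with no read in either library. That guide stood at a log2 ratio of 7.86 and, against the floor of 3 unsorted reads, at least 78.6-fold higher after sorting. It had more reads than 98.4% of the protein-coding guides read only in the TRT-negative library, and 227 of those 14434 guides had as many or more. STAG2 thus rested on 1 guide of 6.

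STAG1 (chromosome 3, 136336236 to 136752403) was the best covered member. One guide had 0 unsorted and 164 TRT-negative reads (interval 140 to 191), a log2 ratio of 7.39 and at least 56.8-fold against the floor. A further guide went from 997 to 470 reads, a normalized ratio of 0.489 (interval 0.438 to 0.547). Another went from 4267 to 2792 reads, a ratio of 0.679 (interval 0.647 to 0.713), and its unsorted count was above that of 98.3% of the protein-coding guides read there. Both guides that were abundant before the sort were thus lower after it, while a guide with no unsorted read can be seen only as higher. The remaining 3 STAG1 guides had no read.

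The same range of reads was reached by guides without a target. Of 1000 non-targeting guides, each counted once, 190 were read only in the TRT-negative library, with a median of 37.0 and a highest count of 375 reads. Of these, 9 had at least as many reads as the STAG1 guide and 1 at least as many as the STAG2 guide. When the threshold was moved to the 99th percentile, a log2 ratio of 7.25, both STAG guides remained, which is again 2 of 60 beside 0.499% of all protein-coding guides. The interval of that share begins at 0.406% and includes the value of the pool.

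**Figure D3:**
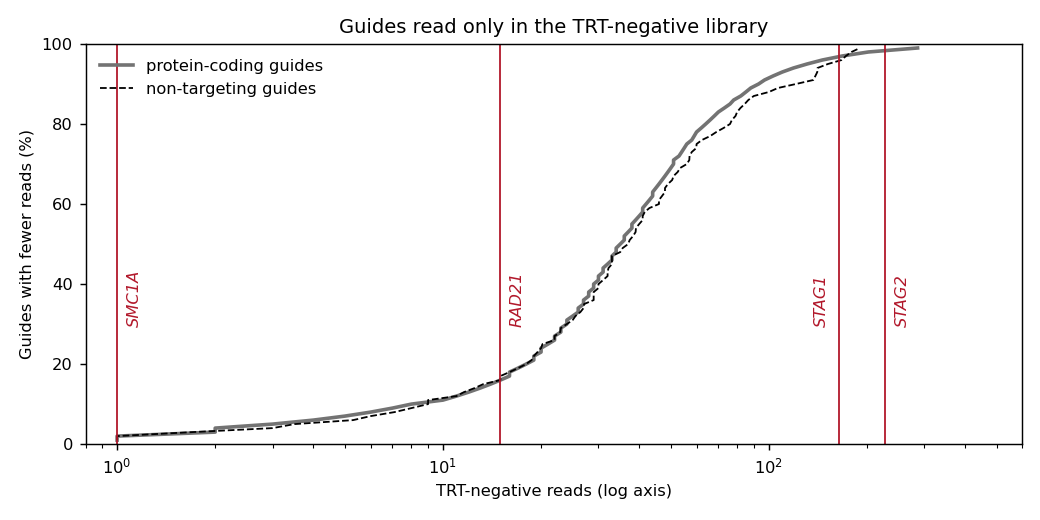
Curves give the percentage of guides with fewer TRT-negative reads (y axis) than the count on the log x axis, among protein-coding (grey) and non-targeting (dashed black) guides read only in the TRT-negative library; red lines mark the 4 guides against cohesin genes. STAG1 at 164 and STAG2 at 227 reads lie high on both curves, RAD21 at 15 and SMC1A at 1 read lie low.

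NIPBL (chromosome 5, 36876769 to 37066413), the loader, had 2 well-read guides with opposite changes. One went from 1622 to 519 reads, a normalized ratio of 0.332 (interval 0.300 to 0.367). The other went from 1098 to 1684 reads, a ratio of 1.59 (interval 1.47 to 1.72). The log2 ratios of -1.59 and 0.67 have counting intervals that do not overlap (-1.74 to -1.45 and 0.56 to 0.78). The other 4 NIPBL guides had no read.

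Disagreement of this kind was common in the pool. Of the 10 genes, 2 had at least 2 well-read guides, against 10.3% of protein-coding genes, and NIPBL was the 1 of these with guides on both sides of a log2 ratio of 0. Among all 1963 protein-coding genes with at least 2 well-read guides, 50.1% had guides on both sides. The gap between highest and lowest guide was 2.26 on the log2 scale for NIPBL and 0.47 for STAG1, beside a median gap of 1.40 (quartiles 0.69 and 2.36) over those genes. That median gap was wider than the distance from 0 of the median log2 ratio of well-read protein-coding guides, given below. The latter is a signed median, with quartiles on both sides of 0.

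PDS5A (chromosome 4, 39822863 to 39977956) had 1 guide with reads, which went from 854 to 1015, a normalized ratio of 1.23 (interval 1.13 to 1.35). Its paralogue PDS5B (chromosome 13, 32586452 to 32778019) had 0 reads on all 6 guides, so the pair could not be compared. WAPAL (chromosome 10, 86435256 to 86521792), the release factor whose loss is known to lengthen loops, also had 0 reads on all 6 guides in both libraries. Of the 18 guides against these regulators of release, 1 was read, in both libraries (5.56%, interval 0.141% to 27.3%), beside 10.5% and 22.6% of all protein-coding guides, which lie within the interval.

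The 5 well-read guides had a median log2 ratio of -0.56 (SD over guides 0.93), from -1.59 to 0.67. The 10616 well-read protein-coding guides had a median of -0.64 (SD 1.40, quartiles -1.39 and 0.41), and the 156 well-read non-targeting guides -0.89 (SD 1.33, quartiles -1.52 and 0.23). All 5 members thus lay within 1 SD of the protein-coding median. Lower by over 2-fold were 2 of the 5, 1 guide each against NIPBL and STAG1, beside 39.2% of well-read protein-coding guides. None was higher by over 2-fold, beside 12.1%. With libraries scaled on non-targeting reads, the ratios shifted up by a median of 0.29, and 1 of 5 guides, that of NIPBL at -1.29, was lower by over 2-fold, beside 28.0% of the pool.

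The members were also set among guides of like abundance. Around the NIPBL guide that was lower after sorting, the 5205 well-read protein-coding guides within 2-fold of its unsorted reads had a median of -0.98, and 23.4% of them were lower still. Around the NIPBL guide that was higher after sorting, 82.1% of 6625 such guides were lower. For PDS5A it was 71.3% of 6801 guides, and for the STAG1 guides 41.6% of 6789 and 55.9% of 1040. Among well-read non-targeting guides, 23 of 156 had a ratio at least as high as the higher NIPBL guide, and 36 as PDS5A.

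**Figure D4:**
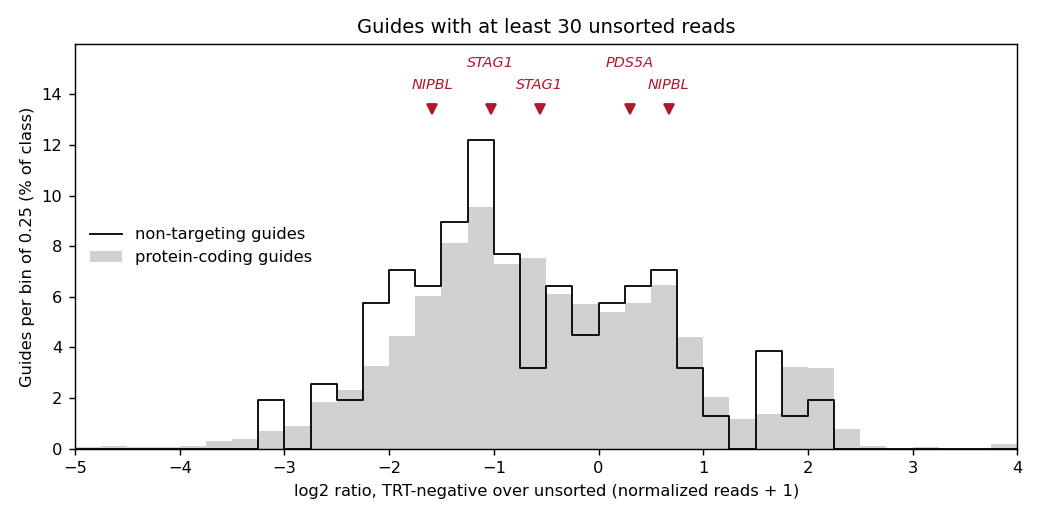
Grey bars show the log2 ratio of TRT-negative over unsorted normalized reads (x axis, bins of 0.25) for well-read protein-coding guides (30 or more reads before sorting) as a percentage of the class (y axis, drawn from -5 to 4), the black outline shows non-targeting guides, and red triangles mark the 5 guides against NIPBL, STAG1 and PDS5A. The triangles run from -1.59 to 0.67, within the bulk of both distributions.

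Over its 6 guides every gene had a median log2 ratio of 0.00, since most guides had no read. The means were 1.31 for STAG2, 0.97 for STAG1, 0.67 for RAD21, 0.17 for SMC1A, 0.05 for PDS5A, -0.15 for NIPBL and 0.00 for the 4 genes without reads. For STAG2, RAD21 and SMC1A each mean is the value of 1 guide without unsorted reads, spread over 6 guides. The order of the means is therefore not an order of effects.

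The wider family of chromosome-structuring genes gave shares near those of the pool. There were 5 lists of related genes, with 46 genes and 276 guides. In the unsorted library 28 guides were read (10.1%, interval 6.85% to 14.3%), beside 10.5% of the pool. In the TRT-negative library it was 60 (21.7%, interval 17.0% to 27.1%), beside 22.6%. Enriched were 10 of the 276 guides (3.62%, interval 1.75% to 6.56%), near the 2.87% of the pool. Of these, 1 guide, against LDB1, also passed the threshold of 7.25, which 0.499% of all protein-coding guides passed. The 27 well-read guides had a median log2 ratio of -0.90 (SD 1.36).

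Among the factors that load, acetylate or release cohesin, 2 of 84 guides were enriched (2.38%), beside 2.87% of the pool. HDAC8, the deacetylase of SMC3, had 1 enriched guide with 61 TRT-negative reads from 0. Among germline cohesin subunits and CTCFL, 1 of 30 guides was enriched (3.33%), beside 2.87% of the pool. It was a guide against CTCFL, the testis paralogue of CTCF, with 128 reads from 0. Further CTCFL guides had 20 and 2 reads. STAG3, the meiotic paralogue of STAG1 and STAG2, had a single guide with reads, 909 before and 3258 after sorting. Its normalized ratio of 3.72 (interval 3.46 to 4.01) was higher than that of any well-read guide of the 10 genes. Of the 6837 well-read protein-coding guides within 2-fold of its unsorted reads, 93.3% were lower. Among all well-read protein-coding guides 12.1% were higher by over 2-fold.

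Condensin, which compacts chromosomes in mitosis, had 8 of 48 guides read in the unsorted library (16.7%, interval 7.48% to 30.2%), beside 10.5% of the pool. It had 2 of 48 guides enriched (4.17%, interval 0.509% to 14.3%), beside 2.87% of the pool. Its subunit NCAPG had a guide with 133 TRT-negative reads from 0 and another with 19. A further NCAPG guide went from 1999 to 268 reads, a ratio of 0.139 (interval 0.122 to 0.158). Of the 4146 well-read protein-coding guides within 2-fold of its unsorted reads, 2.87% were lower. NCAPD3 had 1 guide with 94 reads from 0. The SMC5/6 complex, which acts in DNA repair, had 2 of 42 guides enriched (4.76%, interval 0.582% to 16.2%), beside 2.87% of the pool. Both were against its SUMO ligase NSMCE2, with 139 and 72 reads from 0. SMC6, a core subunit of the complex, had 1 guide seen, with 923 reads before and 1684 after sorting. That was a ratio of 1.89 (interval 1.75 to 2.05), and 87.0% of 6835 well-read protein-coding guides of like abundance were lower.

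Of the genes listed as partners of CTCF or as other architectural factors, 3 of 72 guides were enriched (4.17%), beside 2.87% of the pool. LDB1, which bridges enhancers and promoters, had a guide with 156 TRT-negative reads from 0, beside guides that went from 363 to 151 and from 1184 to 596. MAX, the partner of MYC, had guides with 88 and 45 reads from 0. Its well-read guides had ratios of 0.309 (interval 0.267 to 0.358) and 1.40 (interval 1.30 to 1.51). Among well-read protein-coding guides of like abundance, 14.9% of 6761 and 77.8% of 6323 were lower than these. The other enriched guide, named after its values were seen, was against TOP2B, a type II topoisomerase, with 71 reads from 0.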

How the data were processed

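Guide inserts were PCR-amplified from the genomic DNA of unsorted and TRT-negative reporter cells and sequenced, 1 library each. The deposited files give raw counts of reads for every guide and normalized counts, a signal the authors made by multiplying raw counts by 0.982 (unsorted) or 1.02 (TRT-negative). The submitters' notes name MAGeCK and hg38. How reads were assigned to guides is not given in the sources used here. Further deposited MAGeCK tables hold the authors' own comparison and were not used. Guide sequences and cut positions were not analysed here.

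From the normalized counts, log2 ratios were computed with a pseudocount of 1, and intervals (Clopper-Pearson, Poisson, conditional binomial) cover counting error only. Ratio and interval functions were tested on simulated data. The simulation held only guides with at least 30 unsorted reads and only counting error. It thus does not bear on guides without unsorted reads or on spread beyond counting. The genes and lists were chosen with earlier results of these data known. All 10 genes were named, and from each list of related genes the first 2 by enriched guides, ties by highest TRT-negative count. One gene that this rule names is not reported here. Gene positions are from GENCODE 44 on hg38; all 56 symbols matched, older ones through RefSeq synonyms. Alternatives covered scaling, pseudocounts of 0.5 and 5, read minimums, the 99th percentile, each non-targeting guide once, half-libraries A and B, and rows with identical counts. Software was scipy 1.17.1, pandas 2.3.3, numpy 2.4.6 and matplotlib 3.10.9 under Python 3.11.15.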

Additional observations from a re-analysis of the deposited data

How the results depend on the processing

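The 2 enriched guides against STAG1 and STAG2 stayed enriched under non-targeting scaling, total-count scaling and either pseudocount (0.5, 5). They also did at the 99th percentile, with single non-targeting entries and without rows with identical counts. Neither guide had an unsorted read, and scaling or a pseudocount keeps the order among such guides. No guide with reads against the 10 genes lay beside identical counts. Apart from the 99th percentile, these settings could therefore hardly change the call. With at least 30 unsorted reads required, 0 of the 5 guides left were enriched, since neither STAG guide had an unsorted read. In the related lists 4 of 27 were, above a threshold of 1.58. These were also the 4 of 27 higher by over 2-fold, beside 12.1% of well-read protein-coding guides. The share of all well-read guides above 1.58 was not computed, so the lists are not contrasted. At the 99th percentile 1 of the 276 guides of the related lists was enriched, beside 0.499% of all protein-coding guides. Half-libraries A and B, which hold 30 guides of the 10 genes each, had 1 and 1 enriched guides (5 and 5 in the related lists). Enriched among all protein-coding guides were 2.90% in A and 2.84% in B. In the unsorted library 2 and 3 of the 30 guides were read, beside 9.89% and 11.0% of the pool. In the TRT-negative library it was 4 and 5, beside 22.9% and 22.3%. Read only there were 2 and 2, beside 13.5% and 11.8%. Each of these pool shares lies within the interval of the 30 guides of its half-library. For the well-read guides of the 10 genes the median log2 ratio was -0.26 with non-targeting scaling and -0.79 in half-library A. It was reversed, at 0.30, in half-library B, which lacks the well-read STAG1 guides. The median over the 6 guides of each gene was 0.00 in all 50 values recomputed. No paired analysis was possible because each group has 1 library. Only 9.30% of protein-coding guides were well read, and without replicates the spread of their ratios between cultures and sorts was not measured.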
